A study of Arabidopsis thaliana with 8 samples.

Results

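Leaves of wild-type Arabidopsis thaliana (WT, accession Col-0) were compared before and after 5 d without water. The comparison used 4 of the 8 arrays of the study, 2 labelled as wild-type control (WT 0d) and 2 labelled as wild type after 5 d of drought (WT 5d), and all 22746 probe sets of the ATH1 array other than its control probe sets. The other 4 arrays came from leaves pooled over independent lines overexpressing the grapevine gene VaNAC26 (OE) at the same time points and entered here only through the shared estimate of the spread between replicates. All plants grew in soil at 22 °C with 16 h of light and 8 h of dark for 21 d. Watering was then stopped, and the WT 5d leaves were taken 5 d later, at the same hour of the day as the WT 0d leaves. No plants that were watered for those 5 d were among the arrays, so water deficit, 5 d of added age and the sampling day cannot be told apart. The sources used here do not say whether the 2 arrays of a group came from separate plants or pools, so a p-value here reflects only how far these arrays scatter, and that scatter may be technical. According to the paper, the leaves taken for the arrays were fully expanded. Whole leaves were sampled, and fewer cells of a type and less RNA per cell cannot be told apart in any result below.

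A leaf that loses water closes its stomata, takes up less carbon and slows the division and expansion of its cells. Abscisic acid carries much of the signal and switches on genes for protective proteins such as dehydrins. As the deficit deepens, leaves also break down proteins and organelles for reuse through the proteasome, autophagy and the vacuole, while older leaves move towards senescence. The chloroplast keeps a small genome of its own, and most of its proteins, including those that build its ribosomes and pigments, are made in the cytosol and imported.

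Water withdrawal was followed by a change at 6943 probe sets in WT leaves (30.5%). In gene lists drawn up with earlier results of these data known, every named autophagy probe set and most endosomal sorting genes rose. In such lists most named genes for cell division, chloroplast-encoded ribosomal proteins and chlorophyll synthesis fell. Fewer falls were called among chloroplast-encoded genes and chlorophyll synthesis genes without WT 0d replicate 1. With limma's moderated test and Benjamini-Hochberg adjustment over all 22746 probe sets, 3567 probe sets were higher at 5 d at an adjusted p under 0.05 (15.7%) and 3376 were lower (14.8%). The median log2 difference (5 d minus 0 d) over all probe sets was 0.01, a value that the authors' scaling of the arrays holds near 0. Of the probe sets that rose, 1649 did so by more than 1 on the log2 scale and 99 by more than 3. Of those that fell, 1782 did so by more than 1 and 57 by more than 3. The fold and p limits of the study, a fold above 2 or below 0.5 with an unadjusted p under 0.05, gave 1678 higher (7.38%) and 1843 lower (8.10%) from the same fit.

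The counts depended on single arrays. Without 1 WT array, the number of probe sets called higher was 2090 (WT 0d replicate 1 left out), 2089 (WT 0d replicate 2), 2576 (WT 5d replicate 1) or 1975 (WT 5d replicate 2), and the number called lower was 1794, 2144, 2338 and 1894 in the same order. In all 4 of these fits 1648 probe sets were called higher and 1553 lower, and a gene is described below as held when it was among them. Replicates of WT lay close together: 87 probe sets differed more than 2-fold between the WT 0d arrays and 143 between the WT 5d arrays, against 1294 between the OE 5d arrays. Correlations across probe sets were 0.994 within WT 0d, 0.993 within WT 5d and 0.937 to 0.950 between a WT 0d and a WT 5d array. In all, 14927 probe sets (65.6%) did not overlap between the groups, and 46.5% of these were called. No called probe set had overlapping groups, so a lack of overlap adds no support to a call.

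Few calls were made among dim probe sets. An intensity under 32 was taken here as close to background, a limit set for this description and not measured by the authors. Of the probe sets with a mean under 32 over the 4 WT arrays, 5.48% were higher and 7.21% lower, against 30% and 24.5% of those between 512 and 2048. Of the 9650 probe sets under 32 on all 4 WT arrays 3.84% were higher and 4.88% lower, against 24.4% and 22.2% of the 13096 others. A total of 513 rises started from under 32 on both WT 0d arrays and reached at least 32 on both WT 5d arrays, and 570 falls did the reverse. For such genes the fold is uncertain because 1 side of it lies near background.

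**Figure D1:**
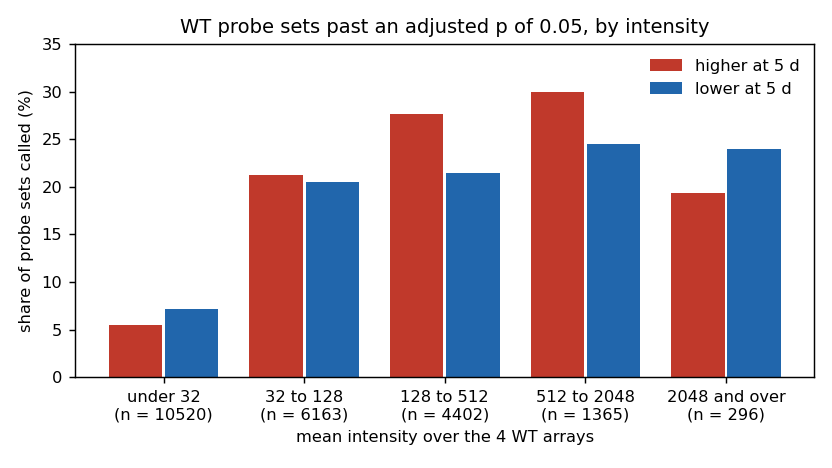
Share of probe sets (%, y axis) past an adjusted p of 0.05 in WT leaves at 5 d against 0 d, by mean intensity over the 4 WT arrays (x axis, number of probe sets in brackets). Red bars are probe sets higher at 5 d and blue bars those lower. The share higher grew from 5.48% under 32 to 30% between 512 and 2048 and was 19.3% at 2048 and over, where 24% were lower.

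Among the largest rises with every WT array over 32 was CHI (AT2G43570), annotated as a putative chitinase, an enzyme that cuts fungal cell wall chitin. Its intensities were 126 and 55.5 at 0 d and 1141 and 1495 at 5 d. The fold was 15.6 (log2 difference 3.96 ± 0.51, SE, n = 2 arrays per group, adjusted p = 0.00134), and the groups lay far apart although the 0 d arrays differed by more than 2-fold. AT5G18470 went from 45.2 and 33.2 to 522 and 540, AT3G60420 from 157 and 128 to 1434 and 2182, and AT1G13990 from 184 and 184 to 1571 and 1968. These loci carry no symbol in the tables used. PDC2, pyruvate decarboxylase, which opens the route from pyruvate to ethanol, read 55.5 and 50.2 at 0 d and 377 and 379 at 5 d. The arrays of each pair lay close together around that 7.17-fold rise (2.84 ± 0.16, adjusted p = 0.000418). From near background came AT3G13610, listed as F6'H1, a synthesis gene of the coumarin scopoletin, with 6.04 and 12.9 at 0 d and 216 and 286 at 5 d (4.81 ± 0.55), and AT1G57630, with 10.9 and 11.1 against 219 and 298 (4.53 ± 0.40).

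The leading falls included Cpn60beta2, a subunit of the chaperonin that folds imported proteins in the plastid. It read 1103 and 1028 at 0 d and 151 and 115 at 5 d, an 8.10-fold fall (-3.02 ± 0.17, adjusted p = 0.000418). AT2G10940 fell from 4429 and 3739 to 735 and 351, and AT1G09750 from 1465 and 1251 to 219 and 100. AT5G48490 read 1790 and 1719 at 0 d and 287 and 186 at 5 d. STOMAGEN, a peptide secreted by the mesophyll that promotes stomatal formation, stood at 382 and 338 before and at 52.4 and 58.7 after water was withheld (-2.70 ± 0.44, adjusted p = 0.00300). SBT1.3, a subtilisin-like protease of the cell wall space, dropped from 494 and 368 to 76.3 and 43.0. In each of these genes every 5 d array lay below every 0 d array, as for every fall called, and each was held.

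**Figure D2:**
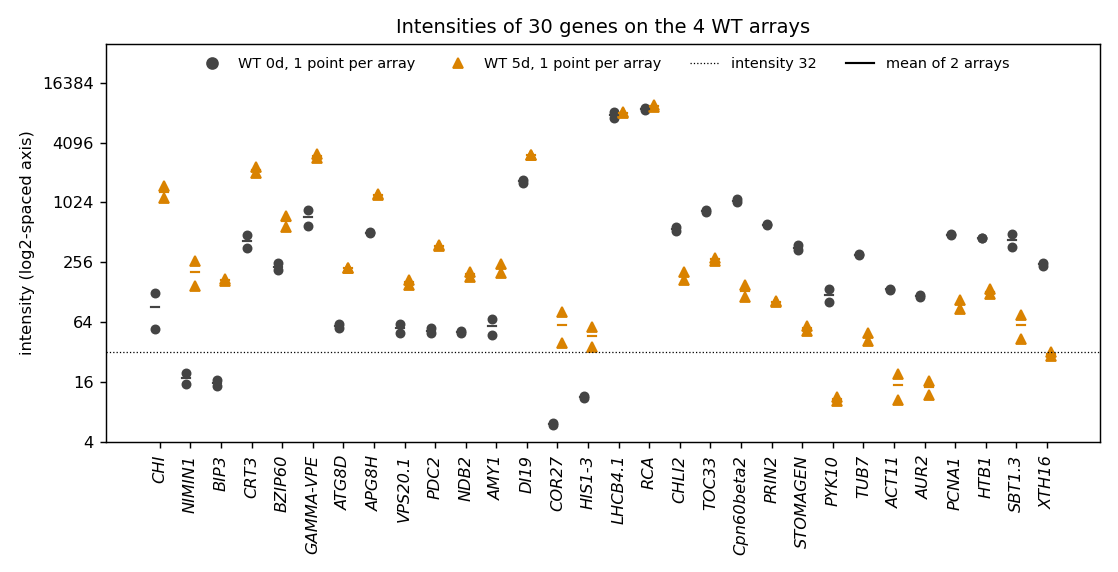
Intensity (log axis) of 30 genes on each WT array, dark circles marking WT 0d and orange triangles WT 5d (n = 2 arrays each), short lines the group means and the dotted line an intensity of 32. The genes from CHI to HIS1-3 lie higher at 5 d, those from CHLI2 to XTH16 lie lower, and the groups overlap for LHCB4.1.

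To describe the change by function, probe sets with 1 named gene were sorted into families and pathways by symbol. Because earlier results of these data were known when the lists were drawn up, a share set beside that of all probe sets describes a list and tests nothing. In the table pairing probe sets with genes 13436 have 1 locus (14.4% higher, 13.7% lower), and only 1551 of these carry a symbol (16.9% higher, 16.8% lower), so each family below is the named share of it and not all its genes. The 42 genes listed for abscisic acid synthesis and signalling had no probe set named in this table, and no count is given for them. Every count below stands against 15.7% higher and 14.8% lower over all probe sets. Over those above 32 on at least 1 WT array the shares were 24.4% and 22.2%. Some further genes are named from a table of changed genes in the study; they were picked there for having changed in these samples and are not in any count. Where a list below has 0 calls in 1 direction, limma gave no member an unadjusted p under 0.05 in that direction either, except 1 of 23 microtubule-binding proteins, 1 of 15 IQ-domain proteins and 1 of 15 chloroplast ribosomal protein genes (higher), and 1 of 10 chloroplast NADH dehydrogenase-like genes and 1 of 13 chloroplast genes for cytochrome b6f, ATP synthase and Rubisco (lower).

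Autophagy genes rose as a group. All 11 named autophagy probe sets were higher at 5 d, against 15.7% of all probe sets, with a median log2 difference of 0.95 (all probe sets 0.01). Most were members of the ATG8 family, the small ubiquitin-like proteins that are joined to the growing autophagosome membrane. ATG8D read 56.2 and 61.0 at 0 d and 225 and 224 at 5 d, a 3.84-fold rise (1.94 ± 0.13, adjusted p = 0.000536). APG8H (AT3G15580) went from 502 and 513 to 1211 and 1242 (1.27 ± 0.12), and APG8A from 153 and 126 to 342 and 438 (1.48 ± 0.20). ATG8F, already at 915 and 878, reached 1516 and 1402. The smallest rise was that of ATG3, the enzyme that conjugates ATG8 to lipid, from 213 and 216 to 328 and 299 (0.54 ± 0.16, adjusted p = 0.0361). Groups did not overlap for any of these 5 genes, as for every call. Without WT 0d replicate 2 the count was 7 of 11, and ATG8E (adjusted p = 0.112) was among those lost.

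Genes of the endosomal sorting machinery, ESCRT, which sorts membrane cargo for the vacuole, moved in the same direction: 9 of 12 probe sets were higher and 1 lower, with a median of 0.65. VPS20.1 rose from 50.0 and 61.8 to 151 and 171 (1.53 ± 0.19), VPS60.1 from 97.5 and 102 to 216 and 306 (1.36 ± 0.24), and VPS46.2 from 278 and 256 to 529 and 546 (1.01 ± 0.13). The exception was VPS2.2, a relative of the core subunit VPS2.1. VPS2.2 fell from 114 and 117 to 21.0 and 14.2 (-2.74 ± 0.34, adjusted p = 0.00125), while VPS2.1 rose from 234 and 246 to 436 and 455 (0.89 ± 0.13). Leaving out WT 0d replicate 2 left 5 higher calls. GAMMA-VPE, the vacuolar processing enzyme of vegetative tissue, which matures vacuolar proteases, stood at 853 and 595 before and 3140 and 2880 after, a 4.22-fold rise (2.08 ± 0.28), and MC1, a metacaspase named from the study's table, read 184 and 180 against 352 and 435.

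The ubiquitin genes split. Of 44 probe sets for conjugating enzymes, ligases and ubiquitin-specific proteases, 12 were higher (27.3%) and 5 lower (11.4%), with a median of 0.12. Over all probe sets above 32 on at least 1 WT array, as 34 of the 44 were, 24.4% were higher and 22.2% lower. RING1, a RING-type ligase, went from 1339 and 1488 to 6114 and 5978 (2.1 ± 0.23, adjusted p = 0.000914). The conjugating enzyme UBC28 went from 2488 and 2373 to 4660 and 4986, and UBC16 from 79.8 and 75.2 to 188 and 246. PUB24, a U-box ligase, rose from 22.2 and 13.2, near background, to 85.5 and 121. UBC20 fell from 215 and 195 to 39.5 and 39 (-2.38 ± 0.35). UBC20 is known for activity in dividing cells, and the cell cycle genes are described below. The higher count was 7 without WT 0d replicate 2 and the lower count 2 without WT 0d replicate 1.

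Of 15 probe sets for chaperones, degradation and the unfolded protein response of the endoplasmic reticulum, ER, 6 were higher and 0 lower (3 higher without WT 0d replicate 2), with a median of 0.50. Those called were the regulators BZIP60 and BZIP28, the degradation genes UBC32, DER1 and DER2.1, and 1 folding protein, ATERDJ3B. The folding proteins ATERDJ2A, ATERDJ2B, PDIL5-1 and CRT1b were not called. Nor were BZIP17 (adjusted p = 0.0875), S1P (0.507), DER2.2 (0.0704) and OS9 (0.0655). A second DER1 probe set, under 32 on all 4 WT arrays, was not called either (0.991). BZIP60, a transcription factor activated by unfolded proteins, rose from 212 and 251 to 575 and 751 (1.51 ± 0.22, adjusted p = 0.00199). The ER chaperone partner ATERDJ3B read 458 and 396 at 0 d and 1092 and 1402 at 5 d (1.54 ± 0.32), a call made in 2 of the 4 fits without 1 WT array (adjusted p = 0.0678 without WT 5d replicate 2). UBC32, a conjugating enzyme of ER-associated degradation, went from 83.4 and 89.3 to 198 and 216. The second membrane-bound regulator, BZIP28, rose less, from 123 and 112 to 198 and 194 (0.74 ± 0.22), and was lost in each fit without 1 WT array. From the study's own table, BIP3, the ER Hsp70 that marks the unfolded protein response, read 16.7 and 14.7 at 0 d and 166 and 175 at 5 d, and CRT3, a calreticulin used by immune receptors, 485 and 353 against 2046 and 2320. CRT1b, another calreticulin, read 834 and 672 against 990 and 1052 (0.45 ± 0.32, 95% interval -0.28 to 1.17). In the cytosol Hsp70-2 rose from 69.4 and 82.2 to 365 and 482 (2.47 ± 0.41), while the 12 heat shock proteins and co-chaperones as a list had 3 higher and 2 lower (1 higher without WT 0d replicate 2).

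Single genes known from defence rose, while the lists of defence genes differed. Of 3 named salicylic acid defence probe sets 2 were higher and 0 lower. The third, PR-1-LIKE, read 12.9 and 13.1 against 13.5 and 13.4, near background, and was not called (adjusted p = 0.867). Both of 2 named receptor-like kinase and protein probe sets were higher, 1 of them under 32 on all 4 WT arrays. Of 15 defensins, thionins and small cysteine-rich proteins 2 were higher and 1 lower, shares below those of all probe sets, and none of the 7 genes of ER bodies was higher. WRKY53, a transcription factor of senescence and salicylic acid responses, read 87.2 and 46.2 at 0 d and 293 and 388 at 5 d (2.41 ± 0.34, adjusted p = 0.00174). UGT76B1, a glycosyltransferase that acts on isoleucic acid and salicylic acid, went from 5.64 and 6.96, near background, to 50.4 and 49.5. GRX480, a glutaredoxin that links salicylic acid to the control of jasmonate genes, rose from 41.5 and 70.9 to 306 and 435 (2.75 ± 0.40). NIMIN1, which binds the salicylic acid receptor NPR1 and is named from the study's table, read 19.7 and 15.5, near background, against 150 and 263. In each of the 4 genes the groups did not overlap, as for every call, and the call was held.

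Of the 10 probe sets for jasmonate synthesis and response 5 were higher and 1 lower, and in the fit that left out WT 0d replicate 2 none was called in either direction. PDF1.2, a defensin induced by jasmonate with ethylene, read 83.1 and 27.4 at 0 d and 466 and 556 at 5 d. Its call (3.42 ± 0.70, adjusted p = 0.00770) was made in 2 of the 4 fits without 1 WT array (adjusted p = 0.0617 without WT 0d replicate 2), and its WT 0d replicate 2 lay under 32. PDF1.2b followed it with 196 and 98.8 against 699 and 1119; these near-identical genes may share hybridisation. OPCL1, of jasmonate synthesis, went from 103 and 141 to 297 and 303. The member lower at 5 d was COS1, a lumazine synthase, which read 787 and 714 against 436 and 399 and was called in 1 of the 4 fits without 1 WT array. Among the thionins, outside this list, THI2.2 fell from 119 and 170 to 23.9 and 29.3 (-2.43 ± 0.20, adjusted p = 0.000629).

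Among enzymes that modify small molecules, UDP-glycosyltransferases and cytochromes P450 had shares of higher calls above that of all probe sets. Their shares of lower calls, 6% and 8.33%, lay below the 14.8% of all probe sets. Of 50 UDP-glycosyltransferases 10 were higher (20%, against 15.7% of all probe sets) and 3 lower (6 higher without WT 0d replicate 2, 1 lower without WT 0d replicate 1) with a median of 0.04, 25 of the 50 were under 32 on all WT arrays, and 6 of the 10 rises were not. UGT87A2 rose from 243 and 204 to 857 and 1113, and UGT84A3 from 83.1 and 86.7 to 251 and 270. UGT76C2, which glucosylates cytokinins, fell from 92.5 and 108 to 38.3 and 48.5. Of 24 cytochromes P450 7 were higher (29.2%) and 2 lower (0 lower without WT 0d replicate 2). CYP71B23 read 114 and 58.3 at 0 d and 442 and 436 at 5 d, and CYP71B6 218 and 193 against 487 and 441. Flavonoid synthesis had 0 of 9 higher and 3 lower, 1 without WT 0d replicate 1, with CHIL, a chalcone isomerase-like protein, at 232 and 241 before and 46.1 and 61.5 after.

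**Figure D3:**
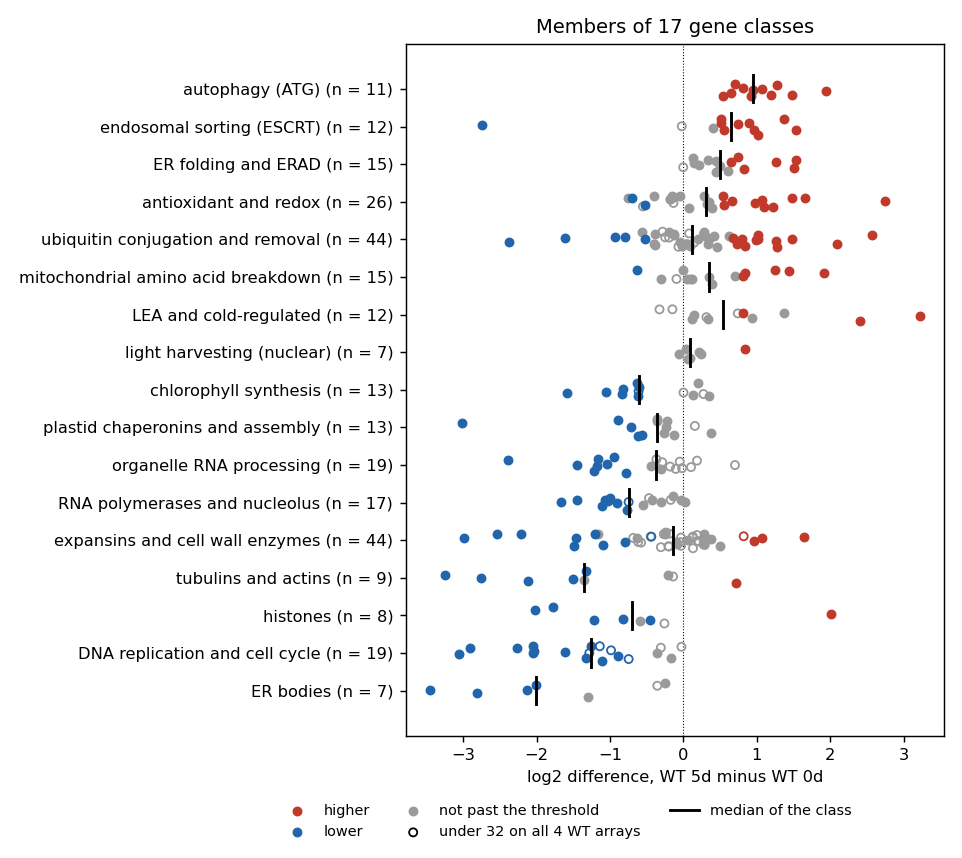
Log2 difference (5 d minus 0 d, x axis) of the probe sets of 17 gene classes in WT leaves, each point 1 probe set, red where called higher, blue where called lower and grey where not called, open where under 32 on all 4 WT arrays, with a black line at the median of each class. Autophagy lies wholly above 0 with a median of 0.95, and DNA replication and the cell cycle lie wholly below 0 with a median of -1.25.

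Among 26 probe sets for antioxidant enzymes 10 were higher (38.5%) and 2 lower (7.69%), with a median of 0.30. The glutaredoxins GRXC1 and GRXC2, which use glutathione to reduce disulfides, went from 143 and 164 to 355 and 513 and from 1177 and 1287 to 2493 and 2772 (1.09 ± 0.13, adjusted p = 0.00116). MSRB9, a methionine sulfoxide reductase, rose from 98.9 and 105 to 289 and 355, and ATMDAR2, which recycles ascorbate, from 158 and 124 to 312 and 338. The genes that fell were CCS, the copper chaperone of superoxide dismutase, with 940 and 828 against 603 and 489, and NTRC, the plastid thioredoxin reductase, with 714 and 677 against 502 and 466; neither was called in any fit without 1 WT array. Their groups did not overlap, as for every call.

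Genes of starch breakdown, fermentation and mitochondrial electron entry were among those that rose. AMY1, an alpha-amylase, rose from 69.1 and 48.2 to 246 and 203 (1.95 ± 0.29), and PWD (AT5G26570), the kinase that prepares starch for breakdown, from 81.7 and 74.1 to 200 and 143. Of the 10 starch and sucrose genes 3 were higher (30%, against 15.7% of all probe sets) and 0 lower, with a median of 0.43. NDB2, an external NADH dehydrogenase of the mitochondrion, went from 50.3 and 52.8 to 184 and 204 (1.91 ± 0.21, adjusted p = 0.000896), while its relative NDB1 read 118 and 114 against 79.1 and 71.3. DELTA-OAT, of proline and arginine metabolism, rose from 83.3 and 79.2 to 195 and 190, and ETFALPHA, which passes electrons from amino acid breakdown to respiration, from 104 and 102 to 181 and 182. In total 5 of 15 genes of this mitochondrial list were higher and 1 lower, 3 and 0 with 1 WT 0d array left out (replicate 2 and replicate 1). Among sugar transporters SWEET11, a sucrose exporter of the phloem parenchyma, rose from 492 and 915 to 1749 and 2020, a call made in 1 of the 4 fits without 1 WT array (adjusted p = 0.184 without WT 0d replicate 1), and the vacuolar SWEET17 fell from 349 and 367 to 221 and 166, also called in 1 of those fits (adjusted p = 0.164 without WT 5d replicate 2).

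Genes named for drought, desiccation or salt moved both ways. Of 8 such genes 6 were higher and 2 lower (3 higher without WT 5d replicate 1, 0 lower without WT 0d replicate 1). DI19, a zinc finger protein named for drought induction, rose from 1713 and 1612 to 3090 and 3048 (0.89 ± 0.15, adjusted p = 0.00375). SIS, a salt-induced serine-rich protein, went from 108 and 91.5 to 437 and 383, and RD2 from 571 and 496 to 1016 and 1262. DI21, also named for drought induction, was lower, 309 and 315 against 76.7 and 55.1 (-2.26 ± 0.58, adjusted p = 0.0198). HVA22C read 249 and 253 against 82.0 and 69.6. Both calls were lost in every fit without 1 WT array. The groups of these 2 genes did not overlap, as for every call. STZ, a zinc finger repressor of salt and cold responses, rose from 62.6 and 107 to 200 and 232 and was called in 1 of the 4 fits without 1 WT array (adjusted p = 0.189 without WT 0d replicate 1).

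Late embryogenesis abundant, LEA, and cold-regulated proteins, which shield membranes and proteins during dehydration, had 3 of 12 probe sets higher and 0 lower (median 0.54), and 6 higher when the 4 WT arrays were fitted alone. The dehydrin AT1G54410 rose from 1367 and 1614 to 2329 and 2902 (0.81 ± 0.16, adjusted p = 0.00665), a call made in 2 of the 4 fits without 1 WT array. COR27 rose from 6.21 and 5.92 to 39.5 and 81.0, and COR15B from 17.7 and 25.9 to 161 and 79.8, both from near background. Its neighbour COR15A read 88.8 and 74.5 against 214 and 113 and was not called (adjusted p = 0.0831). The dehydrins COR47, at 334 and 388 against 520 and 395, and LTI30, at 21.1 and 24.9 against 72.9 and 48.4, were not called either, with 95% intervals of -0.10 to 0.76 and 0.04 to 2.71 on the log2 scale. At the study's fold and p limits, the paper lists COR15A and LTI30 as raised in all 4 of its comparisons, this one included. In COR15B, COR15A, COR47 and LTI30 WT 5d replicate 1 read higher than replicate 2, while in COR27 and AT1G54410 it read lower. HIS1-3, a linker histone induced by drought, also read higher on WT 5d replicate 1, with 11.5 and 11.2 at 0 d and 58.1 and 36.2 at 5 d (2.01 ± 0.30, adjusted p = 0.00205).

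Genes of light harvesting and carbon fixation were for the most part not called. Of 7 light harvesting and photosystem genes 1 was higher and 0 lower, and none of 3 Calvin cycle genes was called, with medians of 0.08 and 0.11. LHCB4.1, an antenna protein of photosystem II, read 7166 and 8203 at 0 d and 8212 and 8046 at 5 d, so that its groups overlapped (0.08 ± 0.14, 95% interval -0.23 to 0.40). RCA, Rubisco activase and the marker of leaf mesophyll here, read 9063 and 8768 against 9858 and 9408 (0.11 ± 0.14, -0.22 to 0.45). The gene called was LHCB4.3, from 1076 and 1112 to 2137 and 1805 (0.84 ± 0.14, adjusted p = 0.00312).

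Chlorophyll synthesis fell at several steps. Of 13 probe sets 0 were higher and 8 lower (14.8% of all probe sets were lower), with a median of -0.61, and 4 were lower without WT 0d replicate 1. CHLI2, a subunit of the magnesium chelatase that commits porphyrin to chlorophyll, read 534 and 583 at 0 d and 204 and 168 at 5 d (-1.59 ± 0.21, adjusted p = 0.00141). Upstream, GSA1, which makes aminolevulinic acid, went from 569 and 494 to 294 and 304, and HEME2, uroporphyrinogen decarboxylase, from 908 and 916 to 465 and 411. CHLM, which methylates the magnesium porphyrin, read 2952 and 2836 against 2134 and 1701, and was called in 1 of the 4 fits without 1 WT array (adjusted p = 0.147 without WT 5d replicate 2). PORB, a late enzyme that needs light, read 402 and 424 against 816 and 338, with the groups overlapping and no call.

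Genes that build and run the plastid were lower in part. The 13 chaperonin and photosystem assembly probe sets had 0 higher and 5 lower, but 1 lower without WT 0d replicate 2. Besides Cpn60beta2, the related subunits Cpn60beta3 (151 and 146 against 87.6 and 72.6) and Cpn60beta4 (103 and 119 against 75.1 and 69.9) fell by 0.90 and 0.61 on the log2 scale, against 3.02 for Cpn60beta2. From the study's table, the import receptor TOC33 read 859 and 814 against 267 and 282, the inner membrane channel protein TIC110 856 and 668 against 246 and 191, and PRIN2, a cofactor of the plastid RNA polymerase, 616 and 603 against 105 and 101.4. Of 19 proteins of organelle RNA processing 0 were higher and 8 lower, 7 without WT 0d replicate 2, and 9 of the 19 were under 32 on all WT arrays. PPR596, a pentatricopeptide repeat protein, fell from 247 and 199 to 42.5 and 41.8 (-2.40 ± 0.21, adjusted p = 0.000629). RAP, needed to mature chloroplast ribosomal RNA, read 327 and 292 against 138 and 139, and RH39, an RNA helicase of the same process, 113 and 84.6 against 39.7 and 32.4.

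Among probe sets for the chloroplast genome's own genes the falls were mainly in ribosomal protein genes. How evenly the labelling captured chloroplast RNA was not tested, so these values may not follow transcript levels. No test compared the kinds of gene, and whether genes of a kind changed independently of each other was not tested. Of 69 probe sets 5 were higher and 13 lower, with a median of -0.13. The 15 ribosomal protein genes had 0 higher and 9 lower (median -0.65), whereas the 20 photosystem genes had 2 higher and 1 lower (median 0.13) and the 10 genes of the NADH dehydrogenase-like complex 2 higher and 0 lower (median 0.30), both near the 15.7% of all probe sets that were higher. Among ribosomal genes, rps15 read 131 and 143 at 0 d and 54.1 and 71.4 at 5 d (-1.14 ± 0.17, adjusted p = 0.00225), and rpl20 159 and 157 against 67.3 and 85.8. Not all moved this way: rpl32 read 605 and 706 against 820 and 872 and was not called (adjusted p = 0.0884). The photosystem II gene psbJ rose from 790 and 788 to 1288 and 1212 (0.66 ± 0.13), and ndhA from 522 and 455 to 795 and 743. The 13 genes for cytochrome b6f, ATP synthase and Rubisco had no call, rbcL reading 1816 and 1529 against 1244 and 1214 (adjusted p = 0.0724). In this set atpA gave 1294 and 1061 at 0 d but 1755 and 124 at 5 d, so that its difference rests on WT 5d replicate 2 alone and was not called. Small differences and single arrays limit these counts, which fell to 1 higher without WT 0d replicate 2 and 5 lower without WT 0d replicate 1.

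**Figure D4:**
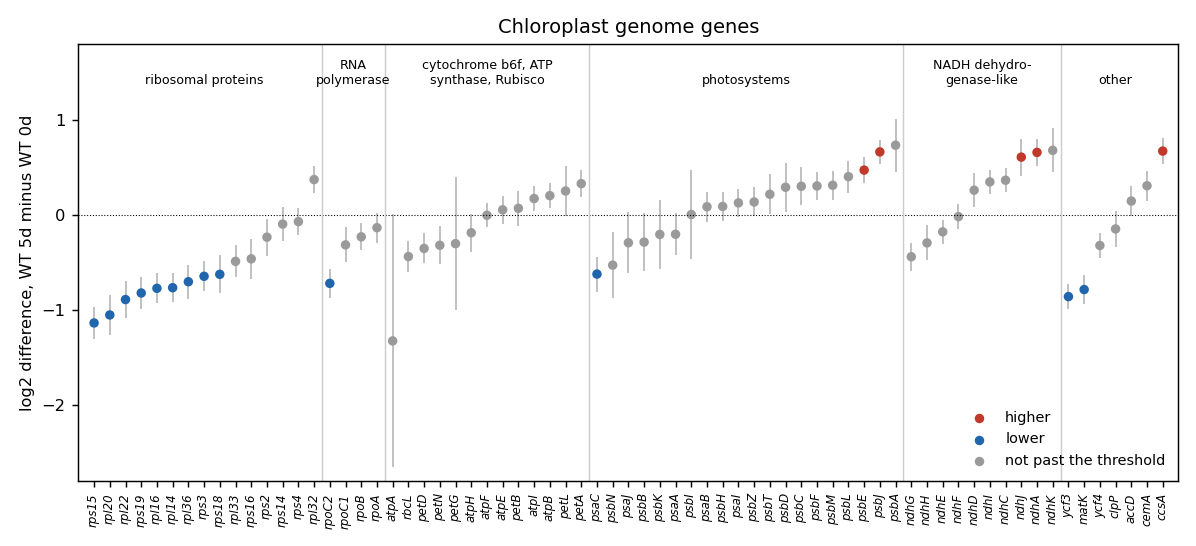
Log2 difference (5 d minus 0 d, y axis) of the 69 probe sets of chloroplast-encoded genes in WT leaves, grouped along the x axis by the kind of product, red where called higher, blue where called lower and grey where not called, with bars showing ± SE from the limma fit (n = 2 arrays per group). Ribosomal protein genes centre on -0.65 and genes of the NADH dehydrogenase-like complex on 0.30, and the point with the long bar is atpA (-1.33 ± 1.33).

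Of 17 probe sets for subunits of the nuclear RNA polymerases and RNA processing, 0 were higher and 9 lower (5 without WT 0d replicate 1), with a median of -0.75. YAO, of pre-ribosomal RNA processing, fell from 95.9 and 84.4 to 28.8 and 27.7 (-1.67 ± 0.15, adjusted p = 0.000642). NRPA2, the second subunit of RNA polymerase I, read 138 and 115 against 53.2 and 64.2, and the exosome subunit RRP41 146 and 166 against 75.9 and 80.5. NRPB6B, a small subunit of RNA polymerase II, read 137 and 138 against 131 and 150, with overlapping groups.

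Cell division genes fell as a group. Of 19 probe sets for DNA replication and the cell cycle 0 were higher and 15 lower, with a median of -1.25, and 12 were called in all 4 fits without 1 WT array. AUR2, an Aurora kinase of mitosis, read 114 and 121 at 0 d and 16.6 and 12 at 5 d (-3.06 ± 0.36, adjusted p = 0.00104), and AUR1 154 and 151 against 35.6 and 28.4. TOPII, topoisomerase II, fell from 92.0 and 93.5 to 15 and 10.1, BUB3.1, of the spindle checkpoint, from 277 and 282 to 74.4 and 62.2, and PRL, a subunit of the MCM replication helicase, from 156 and 148 to 42.9 and 31.5. For AUR2 and TOPII the 5 d values lay under 32, so the floor of the assay limits how far the fall can be read. Of the 19 probe sets 6 were under 32 on all 4 WT arrays, and 11 of the 15 falls were not. From the study's table, PCNA1, the sliding clamp of DNA polymerase, read 477 and 490 against 108 and 86.1, and SYP111, the syntaxin that builds the cell plate, 384 and 365 against 40.7 and 29.0. Among 8 histone genes 5 were lower and 1, HIS1-3, higher: HTB1 and HTB2, both histone H2B, went from 447 and 445 to 138 and 123 and from 277 and 237 to 57.2 and 69.2.

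Of 9 tubulins and actins 5 were lower and 1 higher (3 lower without WT 0d replicate 1, 0 higher without WT 0d replicate 2), with a median of -1.35. TUB7, a beta-tubulin, fell from 309 and 302 to 49.5 and 41.2 (-2.76 ± 0.31, adjusted p = 0.000914), TUA6, an alpha-tubulin, from 1102 and 926 to 387 and 325, and ACT11, an actin of reproductive and young tissue, from 135 and 139 to 19.6 and 10.6. The member that rose was TUA1, known for expression in pollen, from 179 and 150 to 238 and 303. AMS, the only 1 of 12 listed flower and pollen markers with a named probe set, stayed between 4.47 and 5.18 on all 4 arrays. These values lie near background, and the presence of floral or pollen RNA was not tested. Proteins that bind microtubules had 0 of 23 higher and 8 lower (4 without WT 0d replicate 1), but 10 of the 23 were under 32 on all WT arrays and only 3 of the 8 falls were not, and the calmodulin-binding IQ-domain proteins 0 of 15 higher and 6 lower (3 without WT 0d replicate 1).

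Of 44 expansins, XTHs and wall enzymes 4 were higher (9.09%) and 9 lower (20.5%, against 14.8% of all probe sets), 3 lower without WT 0d replicate 2, and 22 of the 44 were under 32 on all WT arrays. XTH16, which cuts and rejoins xyloglucan, fell from 235 and 253 to 31.9 and 29.5 (-2.99 ± 0.27), and EXPA15, an expansin that loosens walls, from 127 and 107 to 48.1 and 36.9. Other members rose, EXPA8 from 158 and 144 to 307 and 280, and the pectin methylesterase PMEPCRF from 344 and 354 to 726 and 741. Among endoglucanases 0 of 15 were higher and 4 lower (2 without WT 0d replicate 1), with GH9B7 at 560 and 546 before and 193 and 166 after. TBL45, of a family that acetylates wall polymers, read 330 and 351 against 79.0 and 64.2; that family had 0 of 23 higher and 6 lower, and 1 lower without WT 0d replicate 2. Of 16 peptide genes of the RALF and CLE families 0 were higher and 3 lower, 1 without WT 0d replicate 1, and RALFL34 fell from 1492 and 1439 to 375 and 247 (-2.27 ± 0.41).

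Of the stomatal lineage 3 factors had a named probe set. SPCH, the factor that starts the stomatal lineage, read 49.0 and 47.9 at 0 d and 15.5 and 16.5 at 5 d (-1.59 ± 0.27, adjusted p = 0.00346). MUTE, which ends the divisions of the precursor, was under 32 on all arrays and read 15.9 and 16.8 against 7.45 and 8.14. FMA, the last factor, of guard cell formation, read 35.7 and 39.9 against 37.6 and 37.7 (-0.00 ± 0.20), with overlapping groups. SCRM2, a partner of all 3 named from the study's table, fell from 197 and 165 to 65.6 and 56.7. TRY, a repressor of trichome fate, rose from 80.2 and 86.9 to 126 and 189, and was called in 1 of the 4 fits without 1 WT array.

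ER bodies, compartments of the Brassicaceae that store a beta-glucosidase for defence, had 0 of 7 genes higher and 4 lower, with a median of -2.0. PYK10, the glucosidase, read 138.8 and 101.4 at 0 d and 11.3 and 10.4 at 5 d (-3.45 ± 0.32, adjusted p = 0.000650), and NAI2, needed to form the bodies, 57.8 and 42.1 against 7.09 and 6.94. PYK10 is best known from roots and seedlings. The root markers EXPA7 and EXPA18 stayed between 7.60 and 11.9 on all WT arrays, so of the 3 root markers only PYK10 was above 32 on any array. JAL23, a lectin of the same complex, read 125 and 88.5 against 80.7 and 22.5 and was not called (adjusted p = 0.288), and JAL34 read 93.9 and 85.2 against 81.5 and 69.5.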

How the data were processed

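RNA of 8 leaf samples (WT and OE, 0 d and 5 d, 2 arrays each) was hybridised to Affymetrix ATH1 arrays. The deposited table holds intensity values on a linear scale that the authors had already summarised and scaled per probe set; the software is not given in the sources used here, and no detection calls were used. Medians of the 4 WT arrays were 36.2 to 38.2, and 47.0 to 48.1% of their probe sets were under 32. Precision is limited by having 2 arrays per group. The study's paper and its sample labels name different RNA extraction kits.

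After leaving out 64 control probe sets, log2 values (values under 1 would have been set to 1, and none was) of all 8 arrays were fitted as 4 group means with limma 3.58.1 (R 4.3.3), and WT 5d minus WT 0d was tested with moderated variances and Benjamini-Hochberg adjustment over 22746 probe sets. Genes were named from the platform table (13436 probe sets with 1 locus, 1551 with a symbol, 503 with several genes, 8636 not listed, 77 with no current locus) with RefSeq symbols of TAIR10.1; 94 more took names only from the study's table of changed genes. Families were matched by symbol, with 868 probe sets in 70 classes; members and lists were chosen with earlier results of these data known. Genes to name were the 15 largest rises and falls over 32 on every WT array, the 5 largest with 1 group under 32, and per class up to 3 rises, 3 falls and the 2 of highest mean, plus every member of the listed stress, cell cycle and marker classes; genes outside this rule, among them VPS2.2, XTH16, ACT11, COR27, PDF1.2, atpA, the dehydrins and all genes named from the study's table, were chosen after their values were seen. On simulated data with known changes in this comparison, run over 22746 probe sets, the fit called 64 of 100 genes changed 2-fold, 99 of 100 changed 4-fold and 4 unchanged genes. No other probe set was changed there, and each had the same spread in every group. In the real data 30.5% of probe sets were called and the OE 5d pair was wider, so these figures do not carry over directly. Alternatives were another normalization, centring, variance model, intensity limit, set of arrays, 1 probe set per gene, and the replicate number as a block.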

Additional observations from a re-analysis of the deposited data

Results flagged for a closer look

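AT4G22490, among the largest falls in WT, was called for a difference between the genotypes in its change over the 5 d, by a test of that difference itself. In WT it read 440 and 251 at 0 d and 17.7 and 14.5 at 5 d (-4.38 ± 0.44), whereas in OE it read 20.03 and 11.1 at 0 d and 278 and 123 at 5 d. The difference between the 2 changes was 8.01 on the log2 scale (limma interaction, adjusted p = 0.0132), the OE 5d pair has a wide spread, and 7 probe sets in all passed this test.

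The array's own polyubiquitin probe sets, which were left out of the comparison, were higher at 5 d without overlap. The 3′ set read 3226 and 3238 at 0 d and 4877 and 5022 at 5 d (log2 difference 0.61), the 5′ set 1150 and 1227 against 1934 and 2123 (0.77), and the middle set 384 and 391 against 718 and 655 (0.82). The 3′ to 5′ ratio of these sets was 2.37 to 2.81 over the 4 WT arrays, and that of GAPDH was 1.76 to 1.86. The Actin ratio was higher and less even, 17.82 and 12.98 at 0 d and 12.49 and 10.45 at 5 d. The part of RNA quality or labelling in these values was not tested.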

How the results depend on the processing

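All 4 counts kept both directions under every alternative, but their size moved. Against 3567 probe sets higher and 3376 lower, an ordinary variance per probe set gave 2040 and 1731, and setting intensities under 32 to 32 gave 2136 and 1778. Using 1 probe set per named gene, which tests fewer features, gave 1933 and 1846, and at the study's limits 850 and 986 (against 1678 and 1843). Over the fits without 1 array of either genotype, the higher count ran from 1975 to 4397 and the lower from 1794 to 4350; at the study's limits they ran from 1554 to 1823 and from 1698 to 1950. The highest counts came without an OE 5d array. Quantile normalization (3557 and 3445), median centring (3709 and 3230), a trended robust prior (3482 and 3311), the 4 WT arrays alone (4077 and 4026) and dim probe sets left out (3145 and 2747) stayed within 1.5-fold. Of 205 calls among 282 named genes, 82 were lost without moderation, 71 with the limit of 32, and 40 to 69 without 1 WT array, and 1 to 3 under the normalization, block, WT-only and prior alternatives that lost any. Deviations of same-numbered arrays correlated positively for every pair of groups, at 0.0136 to 0.223 (WT 0d with WT 5d 0.169). Whether same-numbered arrays were handled together was not tested. With the replicate number as a block the counts were 3560 and 3477, and 1684 and 1862 at the study's limits.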

Other observations

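Further families held changes in WT leaves. Of 22 exocyst and secretion genes 7 were higher and 1 lower (3 higher without WT 5d replicate 2), and KEU, a regulator of vesicle fusion, read 122 and 120 at 0 d and 250 and 275 at 5 d (1.11 ± 0.19). Among 15 calmodulin-like proteins and glutamate receptors 6 were higher and 1 lower, 2 higher without WT 0d replicate 2; only 2 of the 6 rises were not under 32 on all WT arrays. GLR1.4, a glutamate receptor-like channel, read 25.6 and 21.0 against 90.3 and 89.5. Of 15 tetraspanins 3 were higher (20%) and 2 lower (13.3%), near the shares of all probe sets: TET8, known as a marker of plant exosomes, rose from 534 and 583 to 1251 and 1517, and TET10 fell from 181 and 189 to 68.4 and 68.8. Both calls were made in all 4 fits without 1 WT array.

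ARR15, a cytokinin-induced response regulator, fell from 131 and 144 to 27.2 and 34.8 (-2.16 ± 0.17, adjusted p = 0.000608), while RR16, of the same type, read 91.6 and 93.0 against 157 and 211 and was called in 1 of the 4 fits without 1 WT array. WSD1, which makes wax esters, fell from 52.2 and 42.7 to 14.4 and 11.7. Of 42 MADS-box factors 36 were under 32 on all WT arrays, and 3 were higher (7.14%, below the 15.7% of all probe sets). The 3 included AGL16, which read 62.5 and 80.3 against 160 and 169. GSTL3, a lambda-class glutathione transferase, rose from 1324 and 1354 to 2714 and 2358. ALDH7B4, an aldehyde dehydrogenase induced by osmotic stress, read 234 and 191 against 413 and 550, and ALDH3F1 492 and 544 against 238 and 253; 1 of the 4 fits without 1 WT array lost the second call and 2 lost the first.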
